A study of Mus musculus with 6 samples.

Results

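The nuclear genes of oxidative phosphorylation were followed across 6 primary mouse embryonic fibroblast cultures sequenced as RNA libraries. Members were chosen by gene symbol, namely the Nduf genes of the A, B, C, S and V series, the Uqcr genes, Cox4 to Cox8, the Atp5 genes and the Sdh genes of complex II. Of 89 symbols that matched, 83 reached 1 CPM (a gene's counts scaled to the size of the library, the unit of all levels below) in 1 or more libraries and are the members, out of 14824 genes with the same minimum and 25793 genes in the count tables. The cultures came from E13.5 embryos whose parents carried a knockout allele of Sptbn1, the gene of beta-II spectrin (β2SP), a protein of the membrane skeleton, or of Smad3, which carries TGF-beta signals from the receptor to genes in the nucleus. The labels name SMAD3-/- cells, cells heterozygous for both genes (β2SP+/-; SMAD3+/-, here the double heterozygote), SMAD3+/- cells, β2SP-/- cells, β2SP+/- cells and wild-type (WT) cells. All were grown in the same medium with 10% fetal bovine serum and no treatment is named. The labels do not give the strain, the exons that the alleles remove or the number of embryos behind a culture. Each genotype had 1 library and no replicate, so every comparison below describes libraries and not genotypes.

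Oxidative phosphorylation is carried out by complexes of the inner mitochondrial membrane. Complex I takes electrons from NADH and complex II takes them from succinate, and both pass them to ubiquinone. Complex III hands them to cytochrome c and complex IV to oxygen. Complexes I, III and IV pump protons, and complex V, the ATP synthase, uses the gradient to make ATP. Most subunits are encoded in the nucleus, and a few by mitochondrial DNA, which are not analysed here. Factors known to activate many of the nuclear genes include NRF1, the ETS-family factor GABP and YY1.

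Promoter stretches that hold the NRF1 recognition motif are shown for members whose levels are described below, since the motif was found in genes of all 5 complexes, among them members that were higher and members that were lower in the comparisons below. The motif searched was GCGCA followed by any base and GCGC, on both strands, in windows of 250 bases before to 50 bases after each RefSeq transcript start (GRCm38.p6; the deposited counts were made on another build). A window was found for 67 members, and 17 of them (25.4%) held the motif, against 5.19% of the 27025 RefSeq genes with a window. Those RefSeq genes were not held to the minimum of 1 CPM that members had to reach. The contrast therefore also holds any difference between expressed genes and the rest. The ETS motif CCGGAAG was in 25.4% of the members and 9.93% of those RefSeq genes, and the YY1 motif AAGATGGCG in 11.9% and 1.64%. These counts run over the same windows, and a window can hold several of the motifs. A match is a string in a window and shows neither binding nor a cause. Each line gives 60 bases upstream of the start, 5′ to 3′ on the gene's strand, with the NRF1 motif in capitals.
Sdhd (chr9:50603894-50603953, minus strand): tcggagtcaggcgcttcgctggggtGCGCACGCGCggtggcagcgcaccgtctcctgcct
Sdha (chr13:74350304-74350363, minus strand): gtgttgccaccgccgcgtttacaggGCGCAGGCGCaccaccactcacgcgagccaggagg
Ndufs5 (chr4:123718250-123718309, minus strand): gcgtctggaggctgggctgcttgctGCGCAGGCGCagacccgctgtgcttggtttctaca
Ndufb4 (chr16:37654525-37654584, minus strand): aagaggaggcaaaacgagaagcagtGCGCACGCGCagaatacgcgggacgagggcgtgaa
Ndufaf4 (chr4:24897945-24898004, plus strand): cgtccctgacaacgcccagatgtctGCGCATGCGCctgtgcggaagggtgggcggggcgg
Cox6a1 (chr5:115349086-115349145, minus strand): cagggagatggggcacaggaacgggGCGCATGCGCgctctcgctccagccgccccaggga
Atp5h (chr11:115420026-115420085, minus strand): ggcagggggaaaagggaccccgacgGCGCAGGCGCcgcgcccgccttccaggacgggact

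The libraries held 6856680 to 31125055 counts on genes. The libraries labelled SMAD3-/- and double heterozygote stood apart: 80.1% and 81.2% of their uniquely placed reads lay on genes, against 40.9 to 43.3% in the other 4. Structural and nuclear RNAs differed far more: Rn18s, the 18S ribosomal RNA, stood at 0.539% of WT in SMAD3-/- and 2.36% in the double heterozygote, and Malat1 at 11.6% and 0.870%. Rn7sk was 4153 CPM in SMAD3-/-, 0.605 CPM in the double heterozygote and 18.0 to 74.4 CPM in the other 4. The library labelled SMAD3+/- alone held Xist, at 2747 CPM against 0.0637 to 16.3 CPM in the other 5, and had 0.388 CPM of the Y-linked Ddx3y against 118 to 188 CPM, so it differs from the others in the sex of its cells. The share of gene reads that fit several genes was 0.0513% in SMAD3-/- and 1.49 to 1.67% in the other 5. Smad3 stood at 199% of WT in the library labelled SMAD3-/-, 381% in the double heterozygote and 149% in SMAD3+/-, which goes against a loss of transcript. Sptbn1, listed under its older symbol Spnb2, stood at 72.0% of WT in SMAD3-/-, 48.9% in the double heterozygote, 110% in SMAD3+/-, 54.3% in β2SP-/- and 75.5% in β2SP+/-. Genotype names below are therefore those of the labels. All 10 fibroblast markers were detected in every library, with a summed level of 18480 CPM in SMAD3-/-, 56880 CPM in the double heterozygote and 27140 to 35640 CPM in the other 4. The 12 macrophage markers summed to 65.8 CPM in SMAD3-/-, 1800 CPM in the double heterozygote, 1531 to 2293 CPM in the 3 other mutants and 2400 CPM in WT, with all 12 called lower than WT in SMAD3-/- and 6 in the double heterozygote by the rule given below. Endothelial markers summed to 7.20 to 14.7 CPM and erythroid ones to 0.0 to 3.74 CPM. In bulk samples fewer cells of a type and less RNA per cell cannot be told apart.

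Across the 6 libraries the members spanned over 3 orders of magnitude in level per length. The highest mean levels per kilobase of exons were those of Atp5b, the catalytic beta subunit of the ATP synthase (769 CPM per kb), and Cox4i1, a complex IV subunit (214 CPM per kb). Cox6a1 of complex IV, Atp5g3, a gene of the membrane c subunit, and Atp5a1, the alpha subunit, followed at 203, 190 and 178 CPM per kb. The lowest were Ndufs5 (0.394 CPM per kb), Ndufab1, the mitochondrial acyl carrier protein (0.468 CPM per kb), and Ndufb4 (0.766 CPM per kb). All 3 encode parts of complex I. The heart and muscle isoforms Cox6a2, Cox7a1 and Cox8b, the testis isoforms Cox7b2 and Cox8c, and the c subunit gene Atp5g2 did not reach the CPM minimum. Cox7b2 and Cox8c had 0 counts in all 6 libraries, and Cox7a1 came nearest to the minimum, at 0.729 CPM on unscaled library totals. Just inside it were Ndufb4, Atp5l, Ndufs5 and Cox4i2, whose highest levels were 1.31 to 1.97 CPM.

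Members also differ in how far a read can be placed. Each transcript was read in overlapping windows of 50 bases, and a window counted as unique when no transcript of another gene in GENCODE M21 matched it with up to 2 mismatches. The unique share was below 50% in 9 members. Of these, Atp5l (14.3%), Ndufs3 (21.2%), Uqcrb (38.5%) and Cox7c (45.2%) stood at 0.796 to 5.66 CPM in WT. The other 5, Atp5o (24.7%), Atp5h (30.3%), Atp5f1 (45.2%), Cox5a (46.5%) and Atp5c1 (47.8%), stood at 18.5 to 142 CPM, so a low share did not go with a low level throughout. Atp5g2, which did not reach the CPM minimum, had a unique share of 11.7%. A low level of this gene and reads that were not counted cannot be told apart. In 43 members at least 90% of windows were unique, among them Sdhd at 100% and Cox8a at 99.6%. The share was 55.5% in Cox5b, 56.1% in Ndufs5, 62.5% in Ndufb4, 67.4% in Uqcr and 87.2% in Ndufab1. In 66 members no exonic base lay in an exon of another gene of the tables, by the basic set of GENCODE M21. The windows were set against all transcripts of GENCODE M21. Some of the 66 therefore still had windows that matched another gene, as Cox4i1 with Emc8 (Cox4nb in the tables) and Uqcr with Mbd3. Reads placed at several sites, or fitting several genes, were tallied on summary lines apart from the genes. Levels of members outside the 66, and of any member with windows that are not unique, can therefore depend on shared sequence. The strand setting and the rule for overlapping genes were not given in the sources used here.

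**Figure D1:**
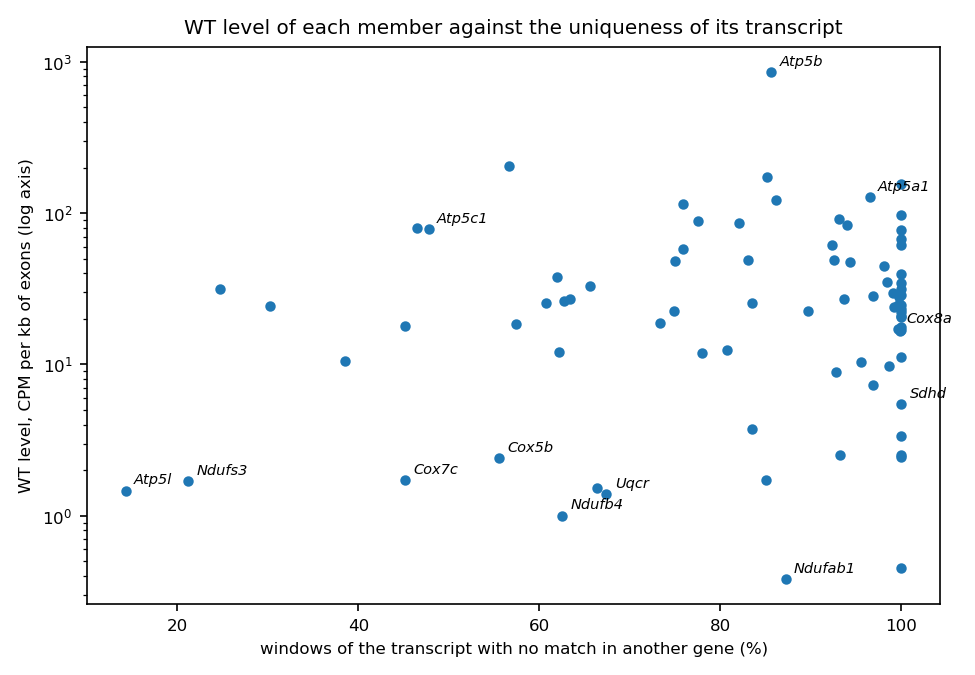
WT level in CPM per kilobase of exons (log axis) against the percentage of 50-base windows of the transcript that match no other gene, 1 point per member, without Ndufs5, which had 0 counts in WT. Atp5l and Ndufs3 lie at the lower left, and Atp5b stands highest.

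In the library labelled SMAD3-/- the members were shifted upward relative to WT as a group, and under 50% of them were called higher one by one. A gene is called higher or lower here when the whole 95% interval of its count ratio, after scaling for library size, lies beyond 1.5-fold. By that rule 37 of 83 members were higher (24.2% of all genes were) and 3 were lower (25.2% of all genes), 40 in all (49.4% of all genes). The share called in either direction was thus near that of all genes. With intervals widened by the dispersion of all 6 libraries, 3 members were called higher and 1 lower. The share of all genes called with those wider intervals was not computed. The members' median log2 ratio was 0.71, against 0.05 for all genes, and 68 members lay above 0. Uqcr reached 1 CPM in SMAD3-/- alone, so it had to differ there, and without it 36 of 82 members were higher and the median was 0.68. The library also stands apart in its reads on genes, its structural RNAs, its markers and its Smad3 level, as given above, and their part in the result was not tested.

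**Figure D2:**
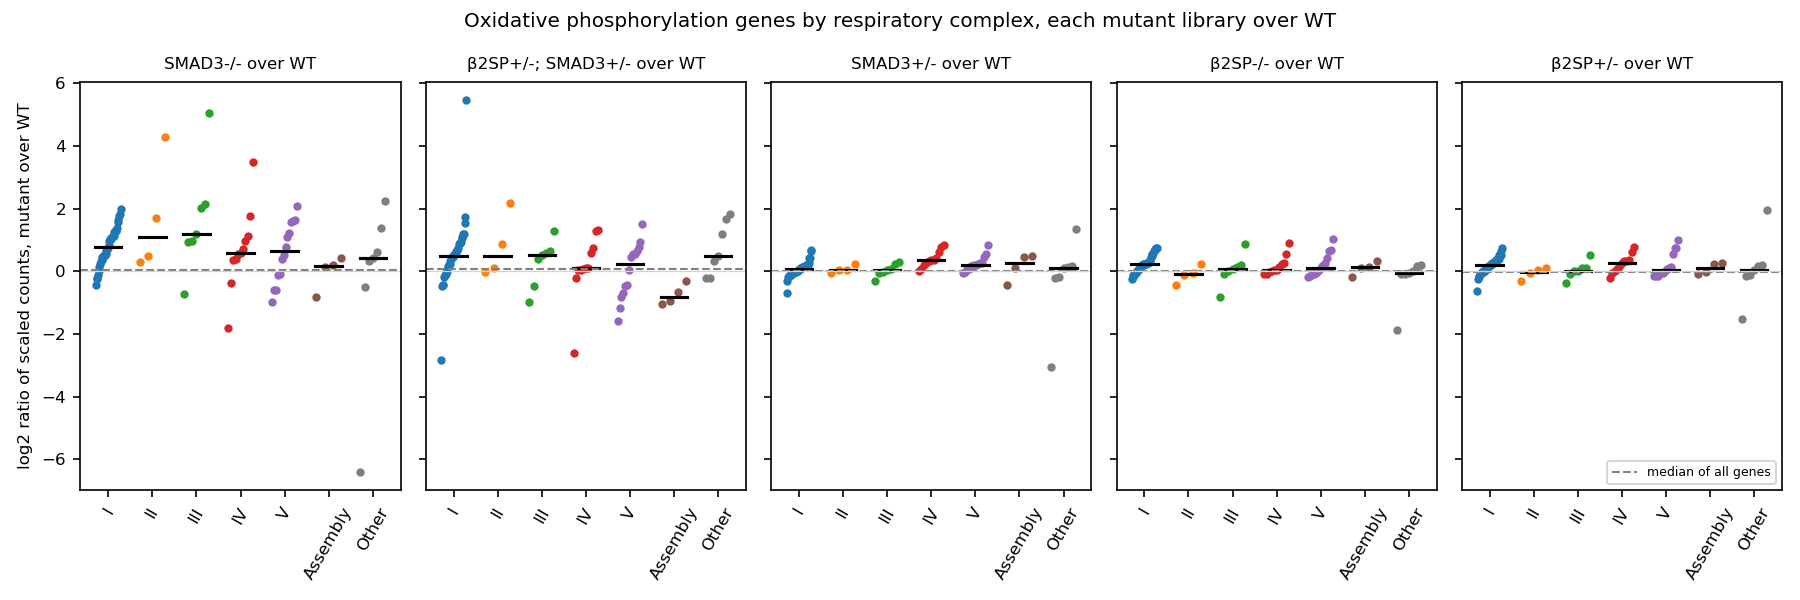
Log2 ratio of scaled counts of each mutant library over WT, 1 point per member, by complex, with black bars at the group medians and a dashed line at the median of all genes. The points of SMAD3-/- and, less so, of the double heterozygote lie mostly above 0, and those of the other 3 libraries lie near 0. Other holds tissue isoforms, Cox7a2l, Ndufa4l2 and 3 genes that are not subunits, and Ndufs5, with 0 counts in WT, is placed with 0.5 counts added.

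Among the 5 complexes, complex III had the largest share of members higher in SMAD3-/-, 6 of 7, with a median log2 ratio of 1.19. Among these 6 is Uqcr, a member only through SMAD3-/-. Uqcrc1, a core protein of the complex, stood at 257 CPM in SMAD3-/-, 141 CPM in the double heterozygote, 70.5 CPM in SMAD3+/-, 66.9 CPM in β2SP-/-, 57.4 CPM in β2SP+/- and 57.6 CPM in WT. It was 4.47-fold higher in SMAD3-/- than in WT (95% interval 4.12 to 4.85). Its partner Uqcrc2 was 180 CPM in SMAD3-/- and 91.0 CPM in WT, so the count ratio of Uqcrc1 to Uqcrc2 was 1.43 in SMAD3-/-, 1.19 in the double heterozygote, 0.670 to 0.805 in the other 3 mutants and 0.633 in WT. Uqcrfs1, the Rieske iron-sulphur protein, was 2.28-fold higher (2.06 to 2.52), at 97.9 CPM in SMAD3-/- and 43.0 CPM in WT. Uqcr, a small subunit, stood alone in 1 library: 22.0 CPM in SMAD3-/-, against 0.318 CPM in the double heterozygote, 0.485 CPM in SMAD3+/-, 0.299 CPM in β2SP-/-, 0.442 CPM in β2SP+/- and 0.619 CPM in WT. Uqcrq was the member of the complex not called, at 30.5 CPM in SMAD3-/- and 50.6 CPM in WT.

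Complex II, succinate dehydrogenase, was split between its subunits. The flavoprotein Sdha was 249 CPM in SMAD3-/-, 192 CPM in the double heterozygote and 171 to 183 CPM in the other 4 libraries, a ratio to WT of 1.39 in SMAD3-/- (1.32 to 1.46) that did not pass the rule. The iron-sulphur subunit Sdhb was 127 CPM in SMAD3-/-, 71.2 CPM in the double heterozygote, 40.5 CPM in SMAD3+/-, 36.2 CPM in β2SP-/-, 37.7 CPM in β2SP+/- and 39.2 CPM in WT, and was 3.24-fold higher in SMAD3-/- (2.93 to 3.59). The membrane anchors differed most. Sdhc, at 89.2 to 110 CPM, had the narrowest range of the 58 members with at least 10 CPM in every library, with its highest level 1.23 times its lowest. Sdhd was 133 CPM in SMAD3-/-, 30.4 CPM in the double heterozygote, 7.85 CPM in SMAD3+/-, 4.93 CPM in β2SP-/-, 5.45 CPM in β2SP+/- and 6.72 CPM in WT. That made Sdhd 19.8-fold higher in SMAD3-/- than in WT (15.8 to 25.2) and 4.53-fold higher in the double heterozygote (3.58 to 5.80). All its windows were unique, and it shared no exonic base with another gene. Its promoter and that of Sdha, both printed above, each hold the NRF1 motif.

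Of the complex I subunits, 15 of 36 were higher in SMAD3-/- and none was lower, with a median log2 ratio of 0.79. Among the 7 core subunits, 4 were higher: Ndufv1, Ndufv2 and Ndufs1 of the NADH-oxidizing arm, and Ndufs3 of the part that reaches ubiquinone, whose sequence is mostly shared with other transcripts. Ndufv1, the NADH-binding flavoprotein, was 130 CPM in SMAD3-/-, 69.5 CPM in the double heterozygote, 43.5 CPM in SMAD3+/-, 43.8 CPM in β2SP-/-, 39.3 CPM in β2SP+/- and 43.8 CPM in WT, and was 2.98-fold higher in SMAD3-/- (2.71 to 3.28). Ndufs1 was 155 CPM in SMAD3-/- and 76.3 CPM in WT, 2.03-fold higher (1.88 to 2.18). Of the 29 accessory subunits 11 were higher, and Ndufb7 had one of the 3 widest ranges among the 58 members with at least 10 CPM in every library: 56.0 CPM in SMAD3-/-, 29.9 CPM in the double heterozygote, 18.7 CPM in SMAD3+/-, 16.7 CPM in β2SP-/-, 13.6 CPM in β2SP+/- and 14.1 CPM in WT. Ndufb3, at 16.2 to 21.2 CPM, varied little. The 4 assembly factors Ndufaf1 to Ndufaf4 were not called, with log2 ratios of -0.83 to 0.42.

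In complex IV, 5 of 11 subunits were higher in SMAD3-/- and 1 was lower, with a median of 0.59. Cox8a, a small supernumerary subunit, was 106 CPM in SMAD3-/-, 23.3 CPM in the double heterozygote, 12.1 CPM in SMAD3+/-, 11.1 CPM in β2SP-/-, 8.10 CPM in β2SP+/- and 9.38 CPM in WT. It was 11.3-fold higher in SMAD3-/- than in WT (9.27 to 13.8) and 2.49-fold higher in the double heterozygote, also past the rule. Cox4i1 was 217 CPM in SMAD3-/-, 199 CPM in the double heterozygote and 133 to 152 CPM in the other 4 libraries, 1.63-fold higher in SMAD3-/- than in WT (1.54 to 1.73). Cox5a was 76.4 CPM in SMAD3-/- and 51.7 CPM in WT and was not called. Cox5b, of which little was counted, was 0.622 CPM in SMAD3-/-, 0.350 CPM in the double heterozygote, 3.97 CPM in SMAD3+/-, 4.18 CPM in β2SP-/-, 3.39 CPM in β2SP+/- and 2.21 CPM in WT, 3.56-fold lower in SMAD3-/- (1.78 to 7.40). The isoforms Cox4i2, at 0.299 to 1.87 CPM, and Cox6b2, at 0.448 to 5.99 CPM, were both called higher in SMAD3-/-. Cox7a2l, which joins complexes III and IV in supercomplexes, was 82.4 CPM in SMAD3-/- and 66.1 CPM in WT and was not called.

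**Figure D3:**
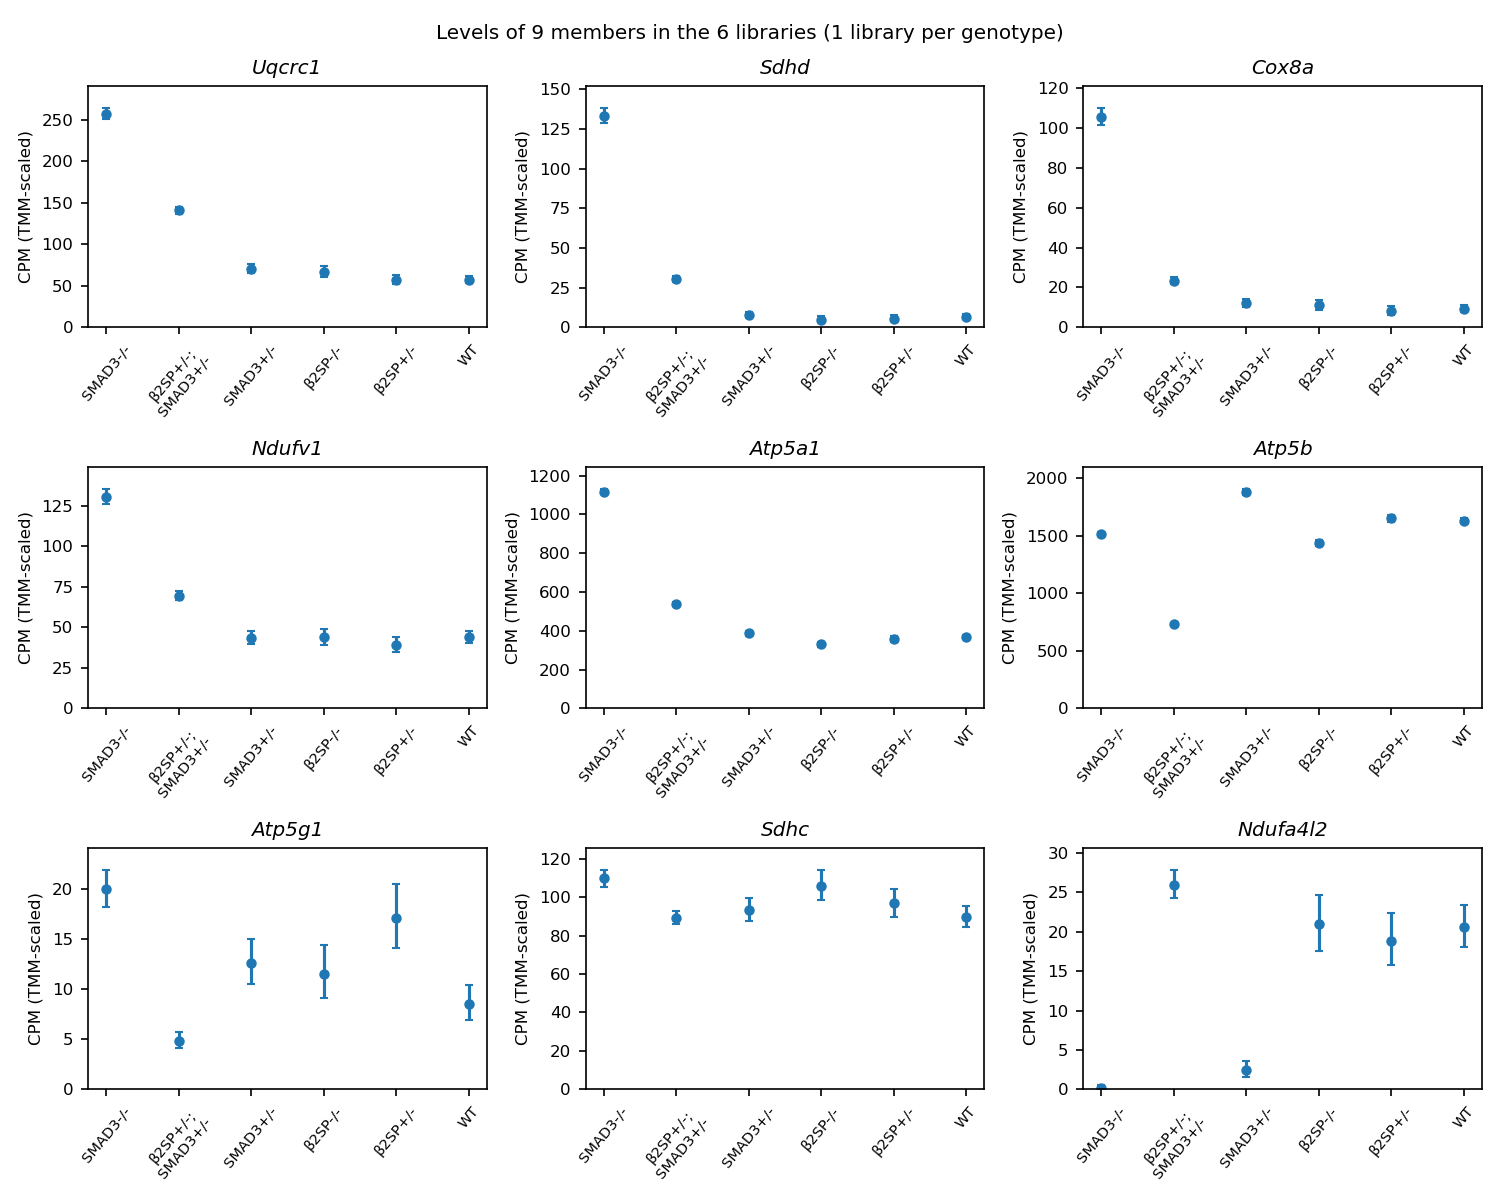
Levels of 9 members in the 6 libraries, in CPM on TMM-scaled library sizes, with bars for the exact 95% interval of the count (counting error only). Uqcrc1, Sdhd, Cox8a and Ndufv1 are highest in SMAD3-/- and next highest in the double heterozygote, Sdhc is nearly level, Atp5b is lowest in the double heterozygote, and Ndufa4l2 is near 0 in SMAD3-/-.

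In complex V, 7 of 14 members were higher in SMAD3-/- and 1 was lower, with a median of 0.65. The alpha and beta subunits, which alternate in equal number in the catalytic head, differed in their pattern over the libraries. Atp5a1 (alpha) was 1118 CPM in SMAD3-/-, 539 CPM in the double heterozygote, 387 CPM in SMAD3+/-, 330 CPM in β2SP-/-, 358 CPM in β2SP+/- and 368 CPM in WT. Atp5b (beta) was 1518 CPM in SMAD3-/-, 730 CPM in the double heterozygote, 1880 CPM in SMAD3+/-, 1436 CPM in β2SP-/-, 1650 CPM in β2SP+/- and 1631 CPM in WT. Alpha was thus high in SMAD3-/-, and beta was low in the double heterozygote. The count ratio of Atp5b to Atp5a1 was 1.36 in SMAD3-/- (1.34 to 1.38) and 1.35 in the double heterozygote (1.33 to 1.38), against 4.86 in SMAD3+/- (4.69 to 5.03), 4.36 in β2SP-/- (4.16 to 4.57), 4.61 in β2SP+/- (4.41 to 4.82) and 4.43 in WT (4.28 to 4.58). The intervals of the 2 libraries that stand apart overlap each other and none of the other 4.

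Among the other ATP synthase genes, Atp5j2, a small subunit of the membrane part, was 54.0 CPM in SMAD3-/-, 36.6 CPM in the double heterozygote, 17.3 CPM in SMAD3+/-, 20.2 CPM in β2SP-/-, 18.8 CPM in β2SP+/- and 12.7 CPM in WT, 4.24-fold higher in SMAD3-/- (3.56 to 5.07). Atp5j, a subunit of the peripheral stalk, was the member of the complex called lower, with an interval of 1.80- to 2.13-fold: 48.6 CPM in SMAD3-/-, 69.6 CPM in the double heterozygote, 93.3 CPM in SMAD3+/-, 92.0 CPM in β2SP-/-, 86.4 CPM in β2SP+/- and 95.4 CPM in WT. In the reference annotation 16.3% of its exonic bases lie opposite exons of Gabpa, and the use of strand in counting was not given in the sources at hand. Atp5d, the delta subunit, was 103 to 130 CPM in all 6 libraries. The c subunit genes Atp5g1 and Atp5g3 encode the same mature protein. Atp5g3 was the more abundant by count in every library, 33.8 times Atp5g1 in the double heterozygote, 6.41 to 10.3 times in the other 4 mutants and 13.2 times in WT.

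In the double heterozygote fewer members passed. Of the 83, 21 were higher than in WT (21.6% of all genes were) and 6 were lower (19.1% of all genes), 27 in all (40.7% of all genes), and the median log2 ratio was 0.45, against 0.06 for all genes. The share called higher is near that of all genes, so that share is no result about the members. Complex I accessory subunits held 9 of the higher members and 1 lower one, complex II 2 of 4, complex IV 3 higher and 1 lower, complex V 3 higher and 2 lower, and complex III 1 of 7. The 9 include Ndufs5, which reached 1 CPM in the double heterozygote alone and so had to differ there, and without it 20 of 82 members were higher and the median was 0.42. Ndufa6, an accessory subunit of complex I, was as high as in SMAD3-/-: 38.0 CPM in SMAD3-/-, 37.9 CPM in the double heterozygote, 11.1 CPM in SMAD3+/-, 12.2 CPM in β2SP-/-, 11.2 CPM in β2SP+/- and 11.2 CPM in WT, 3.37-fold higher in the double heterozygote than in WT (2.81 to 4.08). Ndufs5 had 61 counts in the double heterozygote, 2 in SMAD3-/- and 0 in the other 4 libraries, and the 95% interval of its ratio to WT began at 5.78-fold.

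The members lower in the double heterozygote were Atp5b, Atp5h, Cox5b, Ndufb4, Ndufaf3 and Ndufaf4. Atp5b was 2.23-fold lower (2.19 to 2.28). Atp5h, a subunit of the stator stalk of the ATP synthase, was 12.3 CPM in SMAD3-/-, 6.21 CPM in the double heterozygote, 17.7 CPM in SMAD3+/-, 29.9 CPM in β2SP-/-, 31.2 CPM in β2SP+/- and 18.5 CPM in WT, 2.98-fold lower (2.44 to 3.64). All 4 complex I assembly factors lay below 0 in the double heterozygote, with a median log2 ratio of -0.81. A list of 8 other complex I assembly factors lay on the other side, with 2 higher and none lower in the double heterozygote and a median of 0.41. Ndufaf4 was 35.5 CPM in SMAD3-/-, 13.0 CPM in the double heterozygote, 36.1 CPM in SMAD3+/-, 29.0 CPM in β2SP-/-, 32.1 CPM in β2SP+/- and 26.5 CPM in WT, 2.04-fold lower (1.75 to 2.37). Ndufb4 and Cox5b rest on few counts and wide intervals, 7.64-fold lower (2.26 to 32.9) and 6.31-fold lower (3.00 to 14.2). Of the 6, Atp5h, Ndufb4 and Ndufaf4 are among the promoters shown with the NRF1 motif, as is Ndufs5, which was higher.

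The 3 other mutant libraries lay close to WT for nearly all members. In SMAD3+/- none was higher (1.64% of all genes were) and 1 was lower, Ndufa4l2 (4.45% of all genes, and 6.09% were called in either direction). In β2SP-/- none was called in either direction, against 0.648% of all genes higher, 0.411% lower and 1.06% in all. In β2SP+/- 1 was higher, Atp5g1 (0.634% of all genes), and none was lower (1.19% of all genes, with 1.83% called in all). The median log2 ratios were 0.12, 0.13 and 0.12 in SMAD3+/-, β2SP-/- and β2SP+/-, against 0.01, -0.00 and -0.01 for all genes. All 5 mutants are set against the same WT library, so any deviation of that library enters each of these medians. Atp5g1 was 19.9 CPM in SMAD3-/-, 4.87 CPM in the double heterozygote, 12.6 CPM in SMAD3+/-, 11.5 CPM in β2SP-/-, 17.1 CPM in β2SP+/- and 8.49 CPM in WT, 2.01-fold higher in β2SP+/- (1.52 to 2.66). Between β2SP-/- and β2SP+/-, which do not use WT, no member was called (0.924% of all genes were higher and 0.378% lower, 1.3% in all) and the median was -0.01. In SMAD3+/- all 11 complex IV subunits lay above 0, with a median of 0.36, and none passed the rule. This library also differs in sex.

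Ndufa4l2, a paralogue of the complex IV subunit Ndufa4 that is known as a gene induced by hypoxia, had a pattern of its own. It was 0.222 CPM in SMAD3-/- (5 counts), 26.0 CPM in the double heterozygote, 2.42 CPM in SMAD3+/-, 20.9 CPM in β2SP-/-, 18.8 CPM in β2SP+/- and 20.6 CPM in WT. It was 92.8-fold lower in SMAD3-/- than in WT (39.2 to 289) and 8.51-fold lower in SMAD3+/- (5.62 to 13.4). In SMAD3+/- genotype and sex, by its Xist and Ddx3y levels, cannot be told apart. In the reference annotation 3.43% of its exonic bases lie in exons of Shmt2. Ndufa4 itself stayed between 74.6 and 101 CPM. The count ratio of Ndufa4l2 to Ndufa4 was 0.00219 in SMAD3-/-, 0.329 in the double heterozygote, 0.0313 in SMAD3+/-, 0.281 in β2SP-/-, 0.236 in β2SP+/- and 0.270 in WT. The double heterozygote, which carries the same label of 1 mutant Smad3 allele as SMAD3+/-, lay with the β2SP libraries and WT.

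Other genes known to be induced by hypoxia differed from WT in part in the same libraries. Of 8 on the list, 5 were lower in SMAD3-/- and 1 was higher, with a median log2 ratio of -1.33. In the double heterozygote 6 were higher and none was lower, with a median of 1.38, and in SMAD3+/- 1 was higher and 2 were lower, with a median of -0.41. For all genes the shares higher and lower were 24.2% and 25.2% in SMAD3-/- and 21.6% and 19.1% in the double heterozygote. In SMAD3+/- they were 1.64% and 4.45%. Bnip3, a mitophagy receptor, was 26.0 CPM in SMAD3-/-, 156 CPM in the double heterozygote, 46.4 CPM in SMAD3+/-, 81.1 CPM in β2SP-/-, 61.3 CPM in β2SP+/- and 76.5 CPM in WT. Ndrg1 was 27.0 CPM in SMAD3-/-, 203 CPM in the double heterozygote, 27.5 CPM in SMAD3+/- and 49.9 to 69.0 CPM in the other 3 libraries. Adm, the gene of adrenomedullin, went the other way in SMAD3-/-, at 51.3 CPM there, 328 CPM in the double heterozygote, 39.5 CPM in SMAD3+/- and 16.4 CPM in WT. Of 10 smooth muscle and pericyte markers, SMAD3-/- had 5 higher and 2 lower, the double heterozygote 1 higher and 3 lower, and SMAD3+/- 2 higher and 3 lower. Their summed level was 5439 CPM in SMAD3-/-, 1759 CPM in the double heterozygote, 3588 CPM in SMAD3+/-, 2742 CPM in β2SP-/-, 2757 CPM in β2SP+/- and 2305 CPM in WT. The part of these markers in the Ndufa4l2 levels was not tested.

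Set against each other, the libraries labelled SMAD3-/- and double heterozygote differed in 26 members (43.1% of all genes), 23 higher (19.8% of all genes) and 3 lower in SMAD3-/- (23.3% of all genes), with a median log2 ratio of 0.44, against 0.00 for all genes. The higher ones included 10 of 21 core subunits of complexes I, II, III and V, and 6 of 14 members of complex V. Atp5a1 and Atp5b were both 2.07- to 2.08-fold higher in SMAD3-/- than in the double heterozygote, with intervals of 2.03 to 2.11 and 2.05 to 2.11. Atp5g1 was 4.09-fold higher (3.40 to 4.95) and Cox8a 4.53-fold higher (4.17 to 4.93). The 3 lower were Ndufa4l2, Ndufs5 and Ndufa12. Uqcr, among the higher ones, is a member only through SMAD3-/-, and Ndufs5 only through the double heterozygote. Both therefore had to differ in this pair.

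The double heterozygote could also be set against the sum of both single heterozygotes on the log2 scale. In 19 members (35.0% of all genes) the departure less its counting error was beyond 1.5-fold, 10 above and 9 below the sum, against 18.5% above and 16.5% below for all genes, and with the size factors of DESeq2 the split was 6 above and 10 below. Sdhd departed by 2.24 and Ndufa6 by 1.77, where the single heterozygotes lay near WT. Ndufa4l2 departed by 3.52, because it was low in SMAD3+/- and not in the double heterozygote. Below the sum, Cox5b departed by -4.07, Atp5g1 by -2.38, Atp5h by -2.27, Ndufaf4 by -1.75 and Atp5b by -1.38. The departure holds every difference of that library from the other 3, and genotype and preparation cannot be told apart in it.

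A test with an error term was made for a constant step per labelled mutant allele, fitted to all 6 libraries with 3 residual degrees of freedom. In edgeR's quasi-likelihood test 0 of 80 members passed an adjusted p of 0.05 for either gene, and 0.0% of the 14091 genes tested did. For Sptbn1 0 members had an unadjusted p under 0.05 (0.163% of all genes), and DESeq2's Wald test called 0 too (0.0% of all genes). For Smad3 28 of 80 members had an unadjusted p under 0.05 (23.5% of all genes). DESeq2's Wald test called 14 of the 80, all higher per allele, against 6.24% of all genes higher and 14.5% in either direction. SMAD3-/- and the double heterozygote, which stand apart in their reads on genes, both carry labelled Smad3 mutant alleles. A Smad3 step and a difference in preparation therefore cannot be told apart in this fit. With carriers set against non-carriers in place of a step, edgeR called 0 members for either gene, with 4 for Smad3 at an unadjusted p under 0.05. The share of all genes at that p was not computed for this fit or for the fits below that leave out a library. Sdhd came first in edgeR's quasi-likelihood test, with a step of 2.18 on the log2 scale per Smad3 allele (adjusted p = 0.174). Cox8a followed with a step of 1.67 and Uqcrc1 with 1.07, at the same adjusted p. The common coefficient of variation of the fit was 0.467, and it was 0.112 when the 4 libraries other than SMAD3-/- and the double heterozygote were fitted alone. Without SMAD3-/- the members at an unadjusted p under 0.05 numbered 4, without WT 11, without β2SP+/- 12, without β2SP-/- 18, and without SMAD3+/- or the double heterozygote 29 each.

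Transcript length moved with the same libraries. The members are short, with a median exonic length of 1092 bases, against 3333 bases for all genes with a length, and of 5 classes of genes by length the shortest holds 68 of the 83. From the shortest to the longest class, the median log2 ratio of all genes in SMAD3-/- over WT was 0.42, 0.31, 0.21, -0.01 and -0.41, and in the double heterozygote it was 0.25, 0.31, 0.21, 0.04 and -0.32. Within the shortest class, the members' median was 0.73 in SMAD3-/- and 0.47 in the double heterozygote, and 32 of the 68 were higher in SMAD3-/- and 19 in the double heterozygote, against 33.0% and 25.2% of all genes of that class. Of the 66 members described above as sharing no exonic base with another gene, 28 were higher and 1 was lower in SMAD3-/-. Of all genes of that kind, 24.7% were higher and 23.9% lower. The members' median was 0.61, against 0.08 for those genes. Of the 43 members with at least 90% unique windows, 19 were higher and 1 lower in SMAD3-/-, with a median of 0.65. In the double heterozygote 12 were higher and 2 lower. Windows were read for members only, so no share over genes of that kind can be given. Of all genes, 24.2% were higher and 25.2% lower in SMAD3-/-, and 21.6% and 19.1% in the double heterozygote. The part of length in the members' ratios was not tested.

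**Figure D4:**
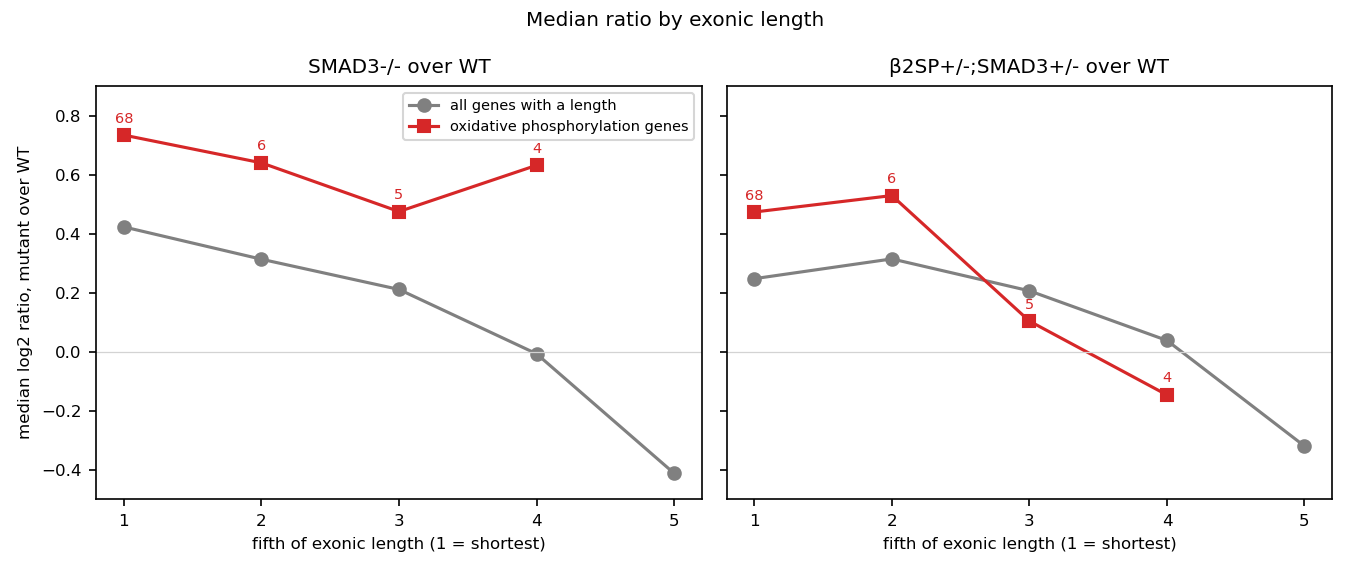
Median log2 ratio to WT by class of exonic length (5 classes, of which 1 is the shortest), for all genes with a length (grey) and for members (red, with their number beside each point), in SMAD3-/- and the double heterozygote. The members lie above all genes in the shortest class of both libraries, where 68 of them fall.

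Related mitochondrial gene lists lay on the same side in SMAD3-/-, where 24.2% of all genes were higher and 25.2% lower. In the double heterozygote 21.6% of all genes were higher and 19.1% lower. Assembly factors other than the members were higher for 13 and lower for 1 of 38 (median 0.70), genes of the tricarboxylic acid cycle for 9 of 16 (0.98) and genes of protein import and carriers for 13 of 21 (0.87). Mitochondrial ribosomal protein genes were higher for 45 of 73 (1.02), and cytosolic ones were higher for 40 and lower for 6 of 69 (0.98), so genes outside mitochondria lay on that side too. In the double heterozygote the medians were 0.13 for other assembly factors, 0.30 for the tricarboxylic acid cycle, 0.09 for import and carriers and 0.19 for mitochondrial ribosomes, against 0.71 for cytosolic ribosomes and 0.90 for glycolysis, of which 10 of 17 genes were higher. Glycolysis had 7 of 17 genes higher in SMAD3-/-, with a median of 0.68. Idh2, the mitochondrial NADP-dependent isocitrate dehydrogenase, was 256 CPM in SMAD3-/-, 119 CPM in the double heterozygote, 44.5 to 53.0 CPM in the 3 other mutants and 46.8 CPM in WT.

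Genes of the carriers that link the complexes also lay on the higher side in SMAD3-/-. Of 13 such genes, 5 were higher (24.2% of all genes) and 1 was lower (25.2% of all genes) there, with a median log2 ratio of 0.69. In the double heterozygote 2 were higher (21.6% of all genes), with a median of 0.01. Coq6, a hydroxylase of ubiquinone synthesis, was 25.4 CPM in SMAD3-/-, 16.3 CPM in the double heterozygote, 3.39 to 6.69 CPM in the 3 other mutants and 6.28 CPM in WT. Etfa, a subunit of the electron transfer flavoprotein, was lower, at 29.7 CPM in SMAD3-/- and 78.6 CPM in WT. Cycs, the gene of cytochrome c, was 7.33 CPM in SMAD3-/- and 2.21 CPM in WT.

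Of 16 regulators of respiratory genes, 2 were higher and 4 lower in SMAD3-/-, with a median of -0.11, and 3 were higher and 2 lower in the double heterozygote, with a median of -0.26. The share lower in SMAD3-/- is near the 25.2% of all genes, and the share higher in the double heterozygote near the 21.6%. Esrra, a nuclear receptor that binds many respiratory gene promoters, was 25.4 CPM in SMAD3-/-, 23.2 CPM in the double heterozygote, 5.14 CPM in SMAD3+/- and 3.53 to 3.89 CPM in β2SP-/-, β2SP+/- and WT. Its coactivators went the other way: Ppargc1a was 0.444 CPM in SMAD3-/- and 2.65 CPM in WT, Ppargc1b 1.55 CPM in SMAD3-/- and 4.60 CPM in WT, and Pprc1 51.3 CPM in SMAD3-/- and 123 CPM in WT. Nrf1, whose motif is shown above, was 56.8 CPM in SMAD3-/-, 29.0 CPM in the double heterozygote and 39.3 to 41.8 CPM in the other 4 libraries and was called in neither. The genes whose level was most like the members' median profile over the 6 libraries were Acot9, Ezr and Socs7, with Pearson correlations of 0.997 to 0.998, a description over 6 points of which SMAD3-/- is the extreme one.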

How the data were processed

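RNA was sequenced from 1 culture per genotype. The authors deposited raw read counts per gene symbol, without scaling, 1 table per library. Per the submitters' processing notes the tools were TopHat2 2.0.10, HTSeq, Trimmomatic, FastQC and DESeq2, with the build mm9; their roles, the strand setting and the annotation were not given in the sources used here. The 5 summary lines did not enter library sizes. Reads on no gene made up 11.9 to 32.6% of all records and reads placed at several sites 32.5 to 47.1%.

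Levels are CPM after TMM scaling (edgeR 4.0.16, R 4.3.3). Ratios of 7 library pairs have exact Clopper-Pearson 95% intervals (scipy 1.17.1), which cover counting error only, and carry no p-value. For log2 ratios 0.5 counts were added. Allele steps were fitted with edgeR's quasi-likelihood test over genes with 1 CPM in at least 2 libraries, with Benjamini-Hochberg adjustment, and DESeq2 1.42.0 was the alternative. The procedures were tested on simulated data. Members and gene lists (237 of 262 listed genes found) were chosen with earlier results of these data known. Named members were, per mutant, the 5 higher and 5 lower with the largest interval bound nearest to 1-fold, core subunits, tissue isoforms and the 3 widest and narrowest ranges; of each other list, genes with the largest such bounds. Any others were chosen after their values were seen. Lengths and shared exons come from the basic set of GENCODE M21, uniqueness from all its transcripts and promoters from RefSeq. One core subunit that the rule names is not reported here.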

Additional observations from a re-analysis of the deposited data

How the results depend on the processing

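Of 169 alternative values, 145 stayed near the main value, 24 moved and 0 reversed. A count stayed when its total was within 1.5 times, whatever the direction of the calls in it. A median stayed when it shifted by under 0.1 on the log2 scale. Only a median could be labelled reversed, and a change of sign with both medians under 0.1 in size was not. Scaling by DESeq2 size factors, total counts or TMM without structural RNA and histone genes gave 39 to 45 called members in SMAD3-/- against WT and 23 to 28 in the double heterozygote. With total counts the median of all genes in SMAD3-/- was 0.14, against 0.05 with TMM. Calls beyond 2-fold numbered 22 in SMAD3-/- against WT, 11 in the double heterozygote, 0 in β2SP+/-, 11 between SMAD3-/- and the double heterozygote, and 10 for the departure. Intervals widened by the dispersion of all 6 libraries left 4, 1, 0 and 3 members in the same 4 pairs, fewer than the counting intervals alone called. Widening by the dispersion within 4 libraries left 15 in the double heterozygote, 0 in β2SP+/- and 11 between SMAD3-/- and the double heterozygote. The share of all genes called was not computed for these other scalings and rules, so these counts give no comparison with other genes. Counting only members with 90% or more unique windows left 20 in SMAD3-/-, 14 in the double heterozygote, 0 in β2SP+/- (median 0.0113) and 13 between the first 2 libraries. Counting subunits alone gave a median of 0.88 in SMAD3-/- and 0 calls in SMAD3+/-, since Ndufa4l2 is no subunit. Members that share no exonic base gave a median of 0.61 in SMAD3-/- and 0 calls in SMAD3+/-. These sets of members by uniqueness and shared exons were chosen after seeing the data. For the Smad3 step, DESeq2 called 14 members, the fit without Sptbn1 5, and the fit to 4 libraries, with 1 residual degree of freedom, 1. Leaving out each library in turn called 0 to 0 members for either gene. No paired analysis was possible because the labels carry no replicate numbers.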

Other observations

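Cell cycle genes and fibroblast markers moved in opposite directions in the libraries labelled SMAD3-/- and double heterozygote. For all genes the shares higher and lower than WT were 24.2% and 25.2% in SMAD3-/- and 21.6% and 19.1% in the double heterozygote. Of 12 cell cycle genes, 11 were higher and 1 lower in SMAD3-/- than in WT, with a median log2 ratio of 1.21, and 0 were higher and 7 lower in the double heterozygote, with a median of -1.01. Of 10 fibroblast markers, 1 was higher and 8 were lower in SMAD3-/-, with Dcn, a matrix proteoglycan, 23.6-fold lower, and 5 were higher and 1 lower in the double heterozygote, with Lum, another matrix proteoglycan, 7.41-fold higher. Of the striated muscle markers that reached 1 CPM, 5 of 9 were higher and 1 was lower in SMAD3-/-. All 12 summed to 151 CPM in SMAD3-/-, 43.6 CPM in the double heterozygote, 150.8 CPM in SMAD3+/-, 68.7 CPM in β2SP-/-, 39.9 CPM in β2SP+/- and 82.8 CPM in WT. Of 7 genes of mitochondrial DNA maintenance, 3 were higher and 1 was lower in both libraries. Polg, the mitochondrial DNA polymerase, was 4.52-fold higher in SMAD3-/- and 3.16-fold higher in the double heterozygote, and Ssbp1, the single-strand binding protein, was 2.42-fold lower and 3.09-fold lower. The part of these genes in the members' levels was not tested.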
